A study of Mus musculus with 15 samples.

Results

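The 34 genes described here are transcripts that cells make in response to interferons. They were taken from the 46078 genes of the count table by matching their mouse symbols, and all 34 were found and passed the filter on low counts. Interferons are secreted proteins that bind receptors on neighbouring cells, where the kinases JAK1 and TYK2 activate STAT proteins, STAT2 among them. With IRF9 these form a complex that binds a short DNA motif, the interferon-stimulated response element (ISRE), before many genes whose products sense, block or degrade viral nucleic acid. In the brain, microglia, astrocytes, endothelium and neurons can all run this programme, and it is known to be active in aged tissue and in some microglia near amyloid plaques.

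RNA was measured in brain tissue of 15 mice, 5 in each of 3 groups. WT mice and APP-PS1 mice were given PBS, and other APP-PS1 mice were given an antibody against CD8a (clone 2.43), the co-receptor of cytotoxic T cells. All mice were 12 months old, and intraperitoneal injections went on for 4 weeks, 10 of them with 0.8 mg of antibody each in the treated group and with 100 µL of PBS in the others. APP-PS1 mice (APP Swedish PS1 dE9) carry a chimeric mouse and human APP with the Swedish mutation and a mutant human presenilin 1, both driven in neurons of the central nervous system by the prion protein promoter. Each library is 1 mouse, and the sources used here do not name the region dissected from its brain hemisphere. Both control groups received PBS and no antibody, so an effect of antibody as such and an effect of the CD8a antibody cannot be told apart. The labels give 4 females and 1 male in the WT group and 2 females and 3 males in each APP-PS1 group.

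Libraries held 17736524 to 36485809 counts. A floor of 3 counts corresponds to 0.0824 to 0.166 CPM (counts scaled to the library's size and composition), for counting error only. App, to which the transgene contributes, separated each APP-PS1 library from each WT library: it was at 1230 to 1324 CPM in WT mice and at 2420 CPM or more in all others. Markers of neurons (summed 7879 to 8779 CPM over 10 genes), astrocytes (7174 to 10224 CPM over 8), oligodendrocytes (5159 to 6940 CPM over 8) and microglia (413 to 1034 CPM over 10) were present in every library. Choroid plexus varied most. Its 10 markers summed to 57.6 to 177 CPM in 10 libraries and to 1929 to 7186 CPM in WT replicates 3 and 5, APP-PS1 PBS replicates 2 and 5 and anti-CD8a replicate 1, the 5 libraries above 1000 CPM of Ttr. The library labelled APP-PS1 PBS replicate 1, labelled male, had the female pattern of Xist and Y-linked genes. In bulk tissue fewer cells of a type and less RNA per cell cannot be told apart.

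The promoters show a sequence feature that many of these genes share. Of the 34 genes, 24 had an entry among the RefSeq promoters of build GRCm38.p6 (Usp18, Ifi27l2a, Oas2, Rtp4, Mx1, Mx2, Zbp1, Parp14, Dhx58 and Ifi204 had none). The core of the ISRE, searched as GAAA, any 2 bases and GAAA on both strands within 300 bases that reach from 250 before to 50 after the start, was found in 14 of the 24 (58.3%), against 3.99% of the 27025 genes with a promoter entry. A longer form, AGTTTC, any 2 bases and TTTC on both strands, was in 10 of 24 (41.7%) against 0.303%. Matches of both forms overlap by construction. A match describes the letters of the window and not a bound site. The 250 bases before the start are printed 5′ to 3′ for the 6 genes with the core that had the smallest p between treated and WT mice, with each match in capitals. They lie at chr7:104465194-104465443 for Trim30a (- strand), chr12:26456453-26456702 for Rsad2 (- strand), chr5:120907526-120907775 for Oas1a (- strand), chr19:34583279-34583528 for Ifit3 (+ strand), chr3:142559794-142560043 for Gbp3 (+ strand) and chr4:156200819-156201068 for Isg15 (- strand).
Trim30a: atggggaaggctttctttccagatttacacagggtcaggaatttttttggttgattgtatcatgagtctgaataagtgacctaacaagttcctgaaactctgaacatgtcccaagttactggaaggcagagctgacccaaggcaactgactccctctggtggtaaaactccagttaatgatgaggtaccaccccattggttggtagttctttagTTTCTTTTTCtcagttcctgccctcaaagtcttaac
Rsad2: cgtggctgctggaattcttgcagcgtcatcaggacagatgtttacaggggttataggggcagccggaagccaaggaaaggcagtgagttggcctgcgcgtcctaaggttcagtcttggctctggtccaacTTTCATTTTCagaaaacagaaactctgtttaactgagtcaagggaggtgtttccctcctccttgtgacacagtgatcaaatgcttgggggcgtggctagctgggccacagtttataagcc
Oas1a: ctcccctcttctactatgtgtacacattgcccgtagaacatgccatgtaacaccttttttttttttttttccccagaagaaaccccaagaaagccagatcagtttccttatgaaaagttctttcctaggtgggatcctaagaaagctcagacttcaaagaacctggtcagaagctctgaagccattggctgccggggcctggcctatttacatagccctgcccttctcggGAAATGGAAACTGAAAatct
Ifit3: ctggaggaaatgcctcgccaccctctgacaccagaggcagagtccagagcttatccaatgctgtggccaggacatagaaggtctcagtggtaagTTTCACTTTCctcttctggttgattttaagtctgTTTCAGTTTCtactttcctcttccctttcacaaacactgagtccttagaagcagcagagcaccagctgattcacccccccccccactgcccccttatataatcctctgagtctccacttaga
Gbp3: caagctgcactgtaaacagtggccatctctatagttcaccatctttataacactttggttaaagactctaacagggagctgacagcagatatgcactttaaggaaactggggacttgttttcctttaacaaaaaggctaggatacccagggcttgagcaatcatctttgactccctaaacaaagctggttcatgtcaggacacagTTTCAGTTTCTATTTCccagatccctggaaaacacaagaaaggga
Isg15: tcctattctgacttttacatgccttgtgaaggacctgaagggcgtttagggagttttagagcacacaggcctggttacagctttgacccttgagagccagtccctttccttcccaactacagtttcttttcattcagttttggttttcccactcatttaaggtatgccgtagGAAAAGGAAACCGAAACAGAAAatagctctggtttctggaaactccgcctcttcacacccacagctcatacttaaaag

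Counting from the start as position 0, Isg15 held 3 overlapping matches between -78 and -57, and Oas1a 2 between -20 and -5. Ifit3 had 2 separate matches, at -156 to -147 and at -122 to -113. In Gbp3 a pair of matches overlapped between -45 and -30. Trim30a had 1 match at -36 to -27 and, in another promoter entry, 1 at 2 to 11. Rsad2 had 1 at -120 to -111. The matches of Ifit3, Gbp3, Trim30a and Rsad2 begin with TTTC, so their core is read on the other strand. The 10 genes with an entry and no core match in the window are Cmpk2, Ifi44, Ifit2, Irf7, Irf9, Lgals3bp, Oasl2, Rnf213, Slfn2 and Xaf1.

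Levels spanned a wide range when counted per length of exon (RPKM, CPM per kilobase). Ifitm3, a membrane protein that blocks fusion of viruses with endosomes, stood highest in WT mice at 13.9 ± 3.5 RPKM (SD, n = 5 here and below). Lgals3bp, a secreted glycoprotein, followed at 8.3 ± 3.15 RPKM, then Stat2 at 5.88 ± 0.41 RPKM, Bst2 at 5.18 ± 2.53 RPKM and Cmpk2 at 4.9 ± 0.515 RPKM; the last 3 differed from each other by less than the spread of Bst2. At the other end were Ifi44 (0.179 ± 0.0876 RPKM), Mx1 (0.126 ± 0.0188 RPKM) and Zbp1 (0.0613 ± 0.0355 RPKM), a sensor of Z-form nucleic acid with as few as 2 reads in a WT library. Zbp1 passed the filter on low counts through the APP-PS1 libraries, since 1 of 5 WT libraries reached the needed 0.334 CPM; the other 33 reached it in all 15.

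Summarised as the mean log2 CPM of the 34 genes, the groups stood in steps. The mean was 1.94 ± 0.17 in WT mice (lowest 1.78, median 1.86, highest 2.16), 2.38 ± 0.14 in APP-PS1 mice given PBS (2.22, 2.36 and 2.60) and 2.82 ± 0.45 in treated mice (2.26, 2.70 and 3.43). On the linear scale the differences correspond to 1.36-fold between the genotypes given PBS, 1.36-fold between the treatments within APP-PS1 mice and 1.85-fold between treated and WT mice. The libraries of both APP-PS1 groups lay above each WT library in this mean, while treated and PBS-given mice overlapped. No p is given for it, because the genes were chosen with results of these data known.

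**Figure D1:**
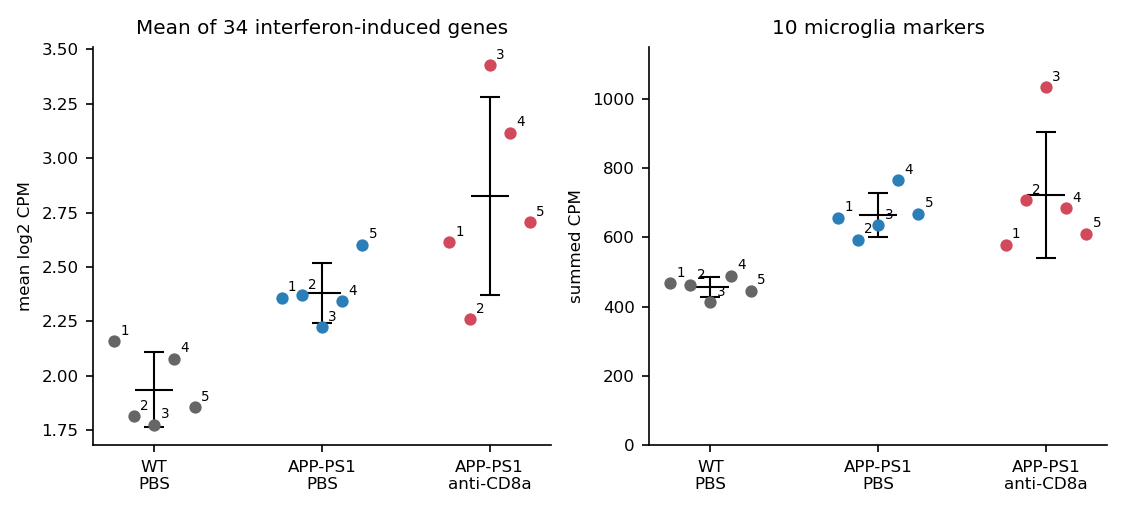
Left, the mean log2 CPM of the 34 interferon-induced genes in each library; right, the summed CPM of 10 microglia markers in the same libraries. Points are mice with their replicate number, and bars are the mean and SD of 5 mice. Treated mice spread from 2.26 (replicate 2) to 3.43 (replicate 3) on the left, and replicate 4, second on the left, lies within the PBS-given APP-PS1 range on the right (683 CPM, above the WT mice).

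The treated group was the most uneven. Anti-CD8a replicate 3 had the highest value of all 15 libraries for 25 of the 34 genes and anti-CD8a replicate 4 for the other 9. Replicate 3 exceeded each PBS-given APP-PS1 mouse in 33 genes and replicate 4 in 32, compared with 18 for replicate 5, 11 for replicate 1 and 1 for replicate 2. Replicate 2 was the lowest treated mouse for 29 genes. Such counts per library were not made over all genes, so no share of all genes stands beside them. For 29 of the 34 genes the SD of log2 CPM was largest in the treated group, with a median SD of 0.45 over the genes, against 0.29 in WT and 0.22 in PBS-given APP-PS1 mice; the medians over all 18974 tested genes were 0.15, 0.14 and 0.16 in the same order. Replicates 2 and 3, the lowest and the highest treated mice, are both labelled female.

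Microglia markers were set beside the interferon-induced genes in each mouse. The 10 markers summed to 413 to 489 CPM in WT mice and to 593 to 765 CPM in PBS-given APP-PS1 mice. Among treated mice replicate 3 stood apart at 1034 CPM, and its 14 plaque microglia markers summed to 1693 CPM against 803 to 1005 CPM in the other 4. Replicate 4, with 683 CPM of the microglia markers, was above the WT mice and within the range of PBS-given mice. In replicate 4, 32 of the interferon-induced genes were above all PBS-given APP-PS1 mice. Replicate 2, with the lowest interferon-induced genes of the group, had 707 CPM. A link between these markers and the interferon-induced genes was not tested. T cell markers over 13 genes summed to 4.22 to 4.89 CPM in WT, 4.03 to 5.48 CPM in PBS-given APP-PS1 and 4.51 to 5.71 CPM in treated mice. Cd8a, the antibody's target, was at 0.0824 to 0.707 CPM in treated mice, close to the floor of counting in some of them. Its level in the other groups is not given here, so no change with treatment can be read from it.

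**Figure D2:**
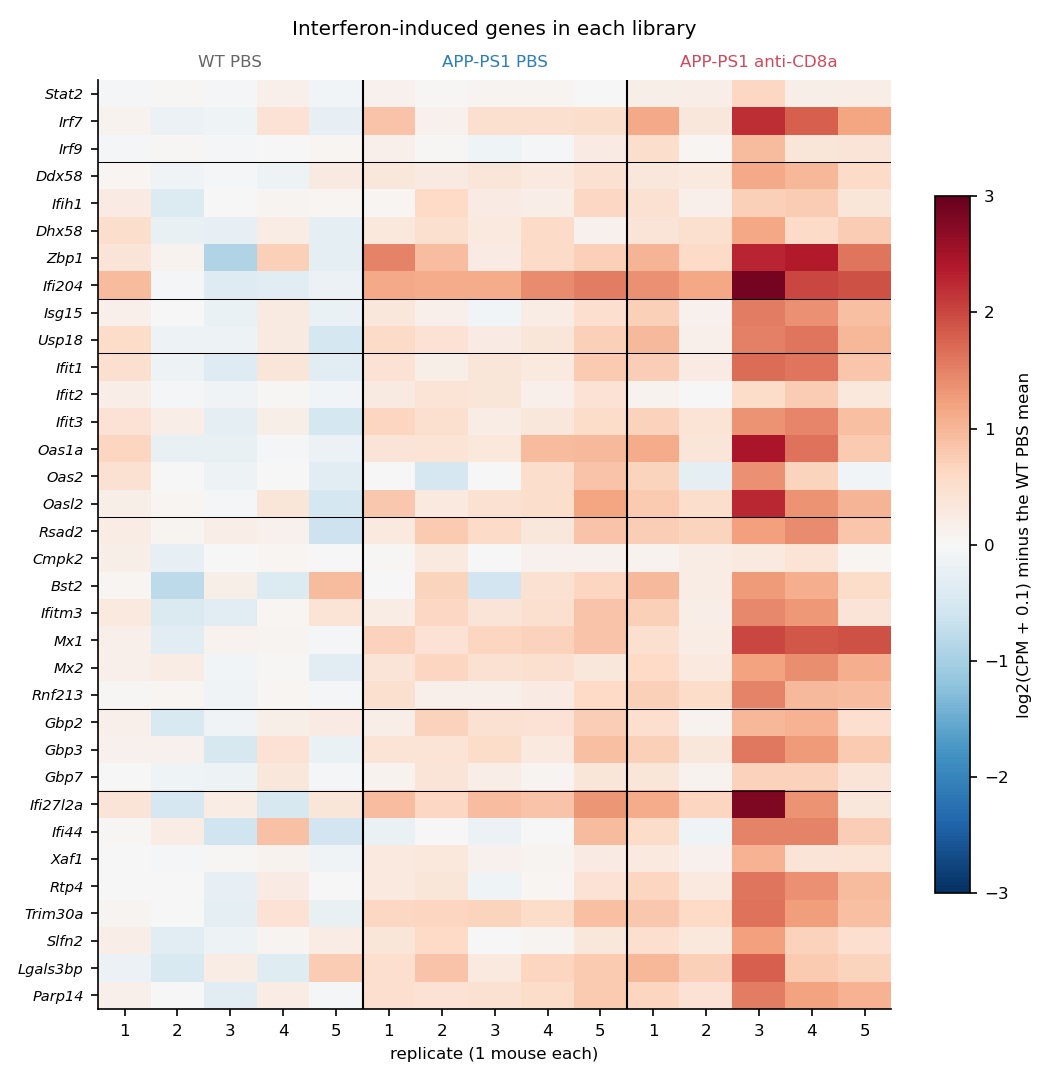
Each row is 1 of the 34 genes, grouped by role, and each column 1 mouse; colour is log2(CPM + 0.1) minus the mean of the 5 WT mice. The columns of anti-CD8a replicates 3 and 4 are red in most rows, replicate 2 resembles the PBS-given mice, and Cmpk2 and Stat2 are pale throughout.

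The first comparison asked how the transgenes alone change these genes. All 34 estimates were higher in APP-PS1 than in WT mice given PBS. Their log2 fold changes ran from 0.09 (Irf9) to 1.42 (Ifi204). The median was 0.47, and 0.46 without Zbp1, which passed the filter on low counts through the APP-PS1 libraries. None passed an adjusted p of 0.05 in edgeR's quasi-likelihood test, where 0.938% of the 18974 genes passed as higher and 0.0896% as lower. At an unadjusted p under 0.05 there were 16 higher and 0 lower, against 5.43% of all genes on the higher side. DESeq2 called 3 (Ifi204, Trim30a and Parp14; 1.48% of all genes were called higher) and limma-voom 0. In 9 genes the groups did not overlap, each PBS-given APP-PS1 mouse being above each WT mouse, which held for 1.83% of all genes. Over all genes tested, 46.9% of estimates were above 0 and the median was -0.01.

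Ifi204, Trim30a and Parp14 had the smallest p in this comparison. Ifi204, which encodes a DNA-binding protein of the PYHIN family, was at 1.49, 0.689, 0.52, 0.551 and 0.619 CPM in WT mice, at 1.69, 1.66, 1.67, 2.07 and 2.26 CPM in APP-PS1 mice given PBS and at 2.0, 1.71, 5.83, 3.2 and 2.97 CPM in treated mice (replicates 1 to 5 in each group). WT replicate 1 stood away from the other WT mice, and still each APP-PS1 mouse was above it. Between PBS-given groups its log2 fold change was 1.42 (SE 0.34, edgeR adjusted p = 0.0677). Trim30a, a ubiquitin ligase induced by interferon that restrains NF-κB signalling, was at 5.85, 5.51, 4.56, 7.5 and 4.78 CPM in WT mice, at 8.56, 8.8, 8.83, 8.21 and 10.4 CPM in APP-PS1 mice given PBS and at 9.81, 8.39, 17.4, 13.4 and 10.5 CPM in treated mice. The groups given PBS did not overlap, and the estimate was 0.75 (SE 0.19, edgeR adjusted p = 0.0768). Parp14, an ADP-ribosyltransferase, was at 8.12, 7.32, 5.86, 8.47 and 6.95 CPM in WT mice, at 10.4, 9.86, 10.0, 10.6 and 12.6 CPM in APP-PS1 mice given PBS and at 11.5, 9.9, 21.2, 16.8 and 15.1 CPM in treated mice. Here too the PBS-given APP-PS1 mice all lay above WT mice, with an estimate of 0.60 (SE 0.18). The remaining genes with separate groups were Ddx58, Rsad2, Mx1, Mx2, Rnf213 and Ifi27l2a.

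Ifi27l2a, which encodes a small membrane protein, had the second largest estimate (1.07, SE 0.41) and stood at 1.61, 0.834, 1.44, 0.847 and 1.6 CPM in WT mice, at 2.41, 1.94, 2.38, 2.29 and 3.2 CPM in APP-PS1 mice given PBS and at 2.74, 1.97, 9.13, 3.23 and 1.57 CPM in treated mice. PBS-given groups were separate, whereas among treated mice 1 value, that of replicate 3, was far above the others and replicate 5 was down at the WT level. The smallest estimates were those of the regulators Irf9 and Stat2. Irf9 had 0.09 (SE 0.13) and Stat2 0.11 (SE 0.08) between the PBS-given groups.

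The difference between genotypes was smaller without the choroid-rich libraries. Without those 5 the median was 0.27, and 30 of the 34 estimates were above 0. With all 15 libraries and a choroid plexus covariate the median was 0.42, and all 34 estimates were above 0. WT replicates 3 and 5, both rich in choroid plexus, were the lowest of the 15 libraries for 11 and 10 genes, and WT replicate 2, which was not, for 10. Also choroid-rich was APP-PS1 PBS replicate 5, the highest mouse of its group in the mean level (2.60) and in 22 genes. Replicate 2 of that group, choroid-rich too, was highest in 7 and lowest in 9. WT replicate 5 is the only WT mouse labelled male. Why the median fell without these libraries was not tested. Left out singly, 4 libraries brought calls in edgeR. Ifi204, Trim30a, Parp14 and Oasl2 passed without anti-CD8a replicate 2 (1.05% of all genes called higher) and Ifi204 without WT replicate 1 (0.764%). Trim30a passed without WT replicate 4 (0.754%) and Lgals3bp without WT replicate 5 (1.12%). With all 15 libraries 0.938% of all genes were called higher. The median was 0.48 among animals whose label numbers begin with 83 and 0.40 among those beginning with 85. With the summed microglia markers as a further covariate, an alternative added after the data were seen, 4 of 34 estimates were above 0. In that fit the median was -0.26 and 9 of all genes passed. The marker sum did not overlap between these groups (413 to 489 CPM in WT, 593 to 765 CPM in PBS-given APP-PS1 mice). That fit therefore cannot separate the covariate from genotype.

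The second comparison asked what the antibody changes in APP-PS1 mice. Again all 34 estimates were above 0, from 0.05 (Ifit2) to 1.00 (Zbp1). The median was 0.48, also without Zbp1, which passed the filter on low counts through the APP-PS1 libraries. None passed in edgeR, as was true of all 18974 genes (0% called; smallest adjusted p among the 34, 0.223). At an unadjusted p under 0.05 there were 22 higher and 0 lower, against 7.59% of all genes higher. DESeq2 called 4 (Rnf213, Rtp4, Irf7 and Isg15), where 0.369% of all genes were called higher, and gave no adjusted p for 8 genes of low count; limma-voom called 0. Stat2 alone among the 34 had separate groups, against 0.954% of all genes. Over all genes 54.1% of estimates were above 0 and the median was 0.02. PBS-given APP-PS1 mice enter both this comparison and the first.

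**Figure D3:**
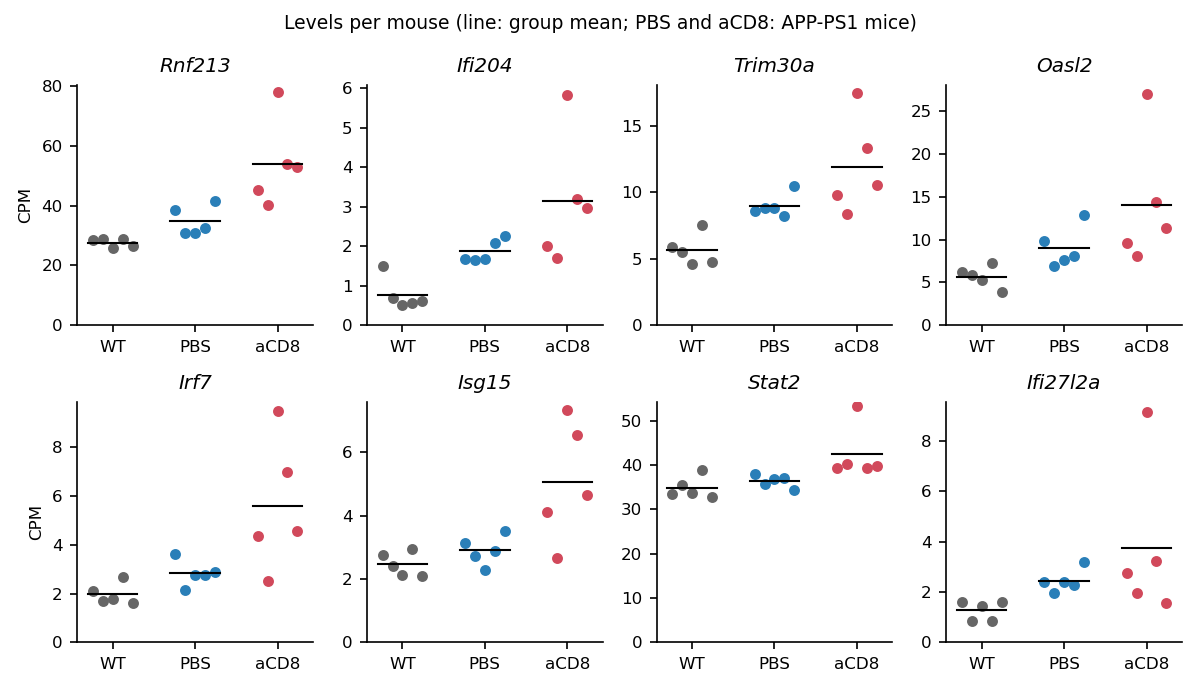
CPM of 8 genes in each mouse, with a line at the group mean and each axis starting at 0. Anti-CD8a replicate 3 is the highest mouse in all 8 panels, and the remaining treated mice overlap the PBS-given ones in most of them.

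Among the regulators, Irf7, the factor that amplifies type I interferon production, was at 2.12, 1.7, 1.79, 2.67 and 1.63 CPM in WT mice, at 3.6, 2.15, 2.76, 2.78 and 2.87 CPM in APP-PS1 mice given PBS and at 4.37, 2.51, 9.46, 6.99 and 4.56 CPM in treated mice. Replicate 2 of the treated mice was within the range of PBS-given mice and the other 4 were above it. The log2 fold change was 0.97 (SE 0.27, edgeR adjusted p = 0.229). Stat2 was at 33.6, 35.5, 33.6, 38.8 and 32.8 CPM in WT mice, at 37.9, 35.6, 36.8, 37 and 34.4 CPM in APP-PS1 mice given PBS and at 39.3, 40.1, 53.2, 39.4 and 39.9 CPM in treated mice. Each treated mouse exceeded each PBS-given one, by little except in replicate 3, and the log2 fold change was 0.22 (SE 0.07). Irf9, the DNA-binding partner of STAT2, was at 16.8, 17.8, 16.8, 17.8 and 18.2 CPM in WT mice, at 19.6, 17.9, 15.9, 17.1 and 20.7 CPM in APP-PS1 mice given PBS and at 25.1, 18.1, 33.9, 22.7 and 22.8 CPM in treated mice. Treated replicates 1 and 3 to 5 were above the PBS-given range and replicate 2 was inside it (0.43, SE 0.12).

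Isg15, a ubiquitin-like protein that is attached to other proteins, was at 2.75, 2.43, 2.14, 2.97 and 2.11 CPM in WT mice, at 3.14, 2.72, 2.3, 2.9 and 3.53 CPM in APP-PS1 mice given PBS and at 4.11, 2.68, 7.34, 6.54 and 4.67 CPM in treated mice. Treated replicate 2 lay among the PBS-given mice and the others above them, with a log2 fold change of 0.80 (SE 0.22, edgeR adjusted p = 0.223). Usp18, the protease that removes Isg15 and restrains the interferon receptor, was at 2.53, 1.52, 1.53, 2.08 and 1.15 CPM in WT mice, at 2.58, 2.33, 2.05, 2.23 and 2.87 CPM in APP-PS1 mice given PBS and at 3.44, 1.91, 5.05, 5.37 and 3.52 CPM in treated mice. Its lowest treated mouse was below all PBS-given mice and the log2 fold change was 0.68 (SE 0.25). Rtp4, a chaperone of G protein-coupled receptors, was at 2.05, 1.99, 1.7, 2.41 and 2.03 CPM in WT mice, at 2.51, 2.61, 1.84, 2.1 and 2.76 CPM in APP-PS1 mice given PBS and at 3.2, 2.51, 6.4, 5.44 and 4.01 CPM in treated mice. Treated replicates 1 and 3 to 5 were above the PBS-given range (0.86, SE 0.22).

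Rnf213, a very large ubiquitin ligase, had the smallest p of the 34 in this comparison and was at 28.4, 28.8, 25.8, 28.8 and 26.4 CPM in WT mice, at 38.4, 30.9, 30.8, 32.6 and 41.6 CPM in APP-PS1 mice given PBS and at 45.3, 40.3, 77.9, 53.9 and 52.9 CPM in treated mice. Treated replicate 2 was just under the highest PBS-given mouse and all other treated mice were above it, with a log2 fold change of 0.63 (SE 0.13, edgeR adjusted p = 0.223). Ifit1, which binds foreign RNA ends, was at 5.4, 3.41, 2.89, 4.96 and 3.07 CPM in WT mice, at 5.16, 4.34, 4.94, 4.7 and 6.63 CPM in APP-PS1 mice given PBS and at 6.48, 4.57, 12.4, 11.8 and 6.9 CPM in treated mice. Its values were high in treated replicates 3 and 4 and near the PBS-given range in the rest (0.72, SE 0.25). Ifit2 (0.05, SE 0.12), Cmpk2 (0.09, SE 0.09) and Ifih1 (0.15, SE 0.15) had the smallest estimates.

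Without anti-CD8a replicate 3 the median over the 34 genes was 0.30 and 32 estimates were above 0. Within animals with numbers beginning with 83 it was 0.45, and within those beginning with 85 it was 0.59. Without the choroid-rich libraries it was 0.62. With the microglia marker covariate it was 0.34, with 33 of 34 estimates above 0.

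The third comparison set treated APP-PS1 mice against WT mice given PBS, joining genotype and treatment; it shares its groups with the other comparisons. Here 21 of the 34 genes rose and 0 fell (edgeR, adjusted p under 0.05), where 1.76% of all genes were called higher and 0.184% lower. Zbp1, which passed the filter on low counts only through APP-PS1 libraries, is among the 21; of the other 33 genes 20 rose, and their median log2 fold change was 1.03. DESeq2 called 27 (2.26% of all genes) and limma-voom 10. All 34 estimates were above 0, which was so for 48.9% of all genes, and all 34 had an unadjusted p under 0.05, against 6.81% of all genes on the higher side. The median log2 fold change was 1.03, from 0.22 (Cmpk2) to 2.16 (Ifi204). In 13 genes each treated mouse was above each WT mouse, which held for 2.16% of all genes, and in 0 each was below, against 0.875%. By role, 2 of 3 regulators, 4 of 5 sensors (3 of 4 without Zbp1), 2 of 2 genes of the Isg15 system, 4 of 6 genes of the Ifit and Oas families, 4 of 7 other antiviral genes, 1 of 3 guanylate-binding proteins and 4 of 8 remaining genes passed.

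**Figure D4:**
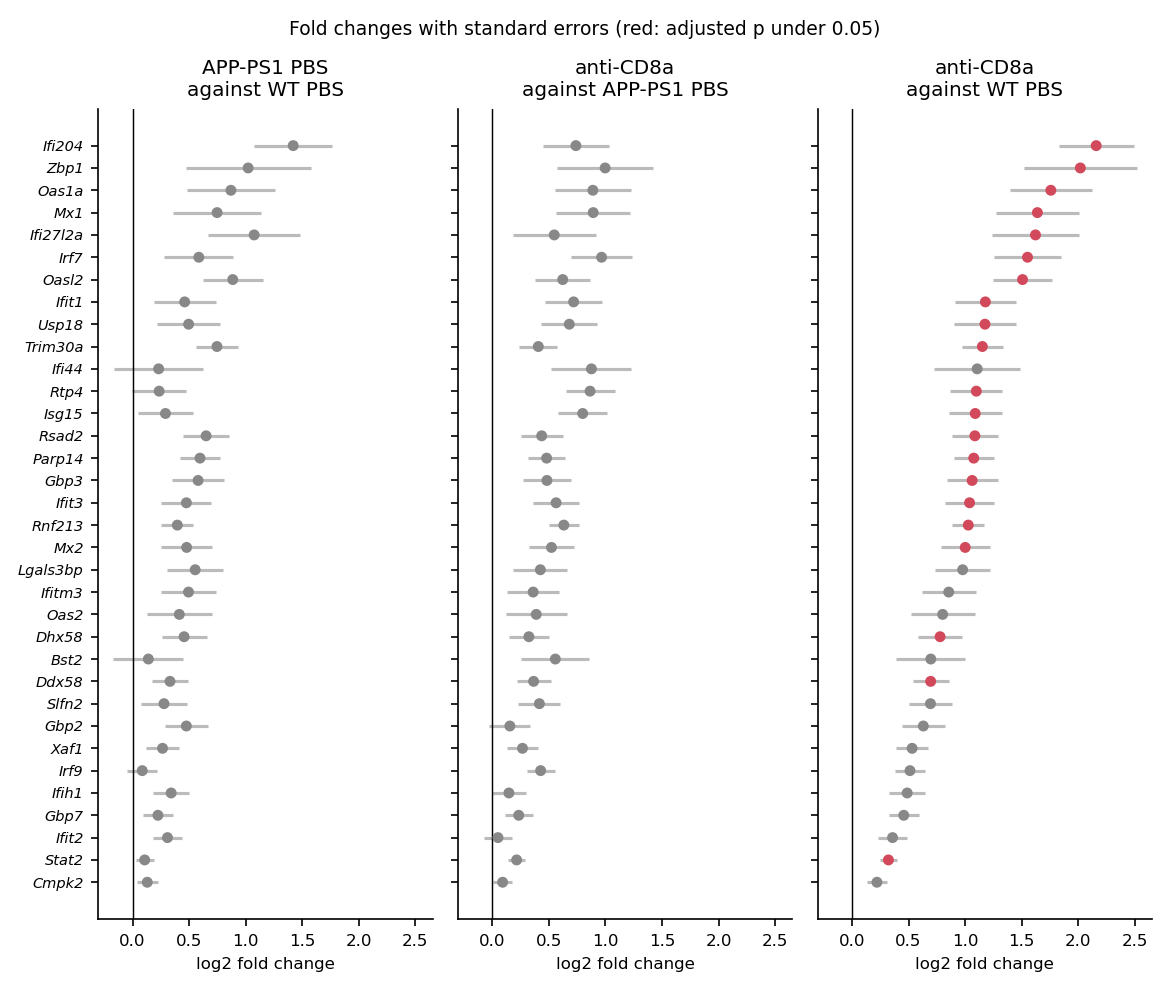
Log2 fold changes of the 34 genes with standard errors in the 3 comparisons, ordered by the right panel; red marks an adjusted p under 0.05 in edgeR. All points lie above 0, and red points occur in the right panel alone, where they number 21.

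Rnf213 had the smallest p, with a log2 fold change of 1.03 (SE 0.14, edgeR adjusted p = 0.000748), and Ifi204 the largest change (2.16, SE 0.33, edgeR adjusted p = 0.00188). Trim30a rose by 1.15 and Parp14 by 1.08. These 4 were the ones called with each of the 15 libraries left out in turn. In all 4 the groups were separate in the CPM values given above. Irf7 rose by 1.55 (SE 0.29) although treated replicate 2 lay below the highest WT mouse, and Stat2 by 0.32 (SE 0.08, edgeR adjusted p = 0.0459), while Irf9 missed the threshold (0.51, edgeR adjusted p = 0.0569).

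In the Oas and Ifit families, Oasl2, an oligoadenylate synthetase-like protein, was at 6.26, 5.8, 5.31, 7.2 and 3.83 CPM in WT mice, at 9.82, 6.85, 7.61, 8.11 and 12.8 CPM in APP-PS1 mice given PBS and at 9.61, 8.02, 26.9, 14.4 and 11.3 CPM in treated mice. All treated mice were above all WT mice, and it rose by 1.51 (SE 0.26). Oas1a, a synthase of oligoadenylates that activate RNase L, was at 0.822, 0.399, 0.404, 0.466 and 0.422 CPM in WT mice, at 0.661, 0.671, 0.627, 1.04 and 1.05 CPM in APP-PS1 mice given PBS and at 1.17, 0.656, 3.1, 1.72 and 0.907 CPM in treated mice. Treated replicate 2 was below WT replicate 1, and the gene rose by 1.76 (SE 0.36). Ifit1 (1.18) and Ifit3 (1.04) rose as well. Oas2 (0.80, SE 0.28) and Ifit2 (0.36, SE 0.13) did not pass. Of all 75-base stretches of Oas1a transcripts 47.6% also occur in Oas1g, and 41.1% of those of Ifit3 in Ifit3b, so how their reads were divided is uncertain; the share was 13.2% for Ifi204, 11.3% for Gbp7 and 10.5% for Rtp4, and below 10% for the rest.

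The RNA sensors Ddx58 (RIG-I, 0.70) and Dhx58 (LGP2, 0.78) rose, whereas Ifih1 (MDA5, 0.49, SE 0.16) did not pass. The nucleic acid sensor Zbp1 had 2.02 (SE 0.50) and passed as well, but it entered the test through the APP-PS1 libraries, where it is high, so its call counts as a description. Isg15 rose by 1.09 and Usp18 by 1.18. Rsad2 (viperin), which makes a chain-terminating nucleotide, was at 2.56, 2.32, 2.51, 2.37 and 1.38 CPM in WT mice, at 2.68, 3.82, 3.3, 2.81 and 4.03 CPM in APP-PS1 mice given PBS and at 3.71, 3.54, 5.22, 6.02 and 3.93 CPM in treated mice. Treated mice were all above WT mice and the gene rose by 1.09 (SE 0.20). Cmpk2, a nucleotide kinase whose gene starts 12.8 kb from Rsad2 on chromosome 12 (chr12:26469204-26479837 and chr12:26442746-26456452, GRCm38), did not pass (0.22, SE 0.09). Its level was 20.4 ± 2.14 CPM in WT mice, 22.2 ± 1.81 CPM in PBS-given and 23.7 ± 2.42 CPM in treated APP-PS1 mice.

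Mx1 (1.64) and Mx2 (1.00), dynamin-like GTPases, rose; the annotation lists Mx2 as a polymorphic pseudogene. The tether of budding virions Bst2 (0.70, SE 0.31) and Ifitm3 (0.86, SE 0.24) did not pass, and in Bst2 the highest WT mouse was a choroid-rich one, replicate 5 at 8.38 CPM against 2.47 to 4.85 CPM in the other 4. Of the guanylate-binding proteins, which attack the membranes of intracellular pathogens, Gbp3 was at 5.78, 5.76, 3.75, 7.2 and 4.64 CPM in WT mice, at 7.11, 7.14, 7.82, 6.5 and 9.99 CPM in APP-PS1 mice given PBS and at 8.75, 6.76, 16.1, 13 and 9.18 CPM in treated mice. Treated replicate 2 was inside the WT range and the other treated mice above it, and Gbp3 rose by 1.06 (SE 0.23). Gbp2 (0.63) and Gbp7 (0.46) did not pass, nor did Ifi44 (1.11), Lgals3bp (0.98, edgeR adjusted p = 0.0515), Slfn2 (0.69) and Xaf1 (0.53).

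The count of 21 moved with the libraries in the fit, and so did the share of all genes called higher, which was 1.76% with all 15. Without anti-CD8a replicate 3 the count was 4 (Rnf213, Ifi204, Trim30a and Parp14), where 0.667% of all genes were called higher. It was 8 without WT replicate 3 (1.17% of all genes), 12 without WT replicate 5 (1.81%) and 13 without WT replicate 2 (1.26%). Without anti-CD8a replicate 2 it was 30 (2% of all genes). Of the 21, Dhx58 was called in 3 of the 15 fits with a library left out, and Stat2, Zbp1 and Ifi27l2a in 4 each. Lgals3bp, not among the 21, was called in 3. Without the 5 choroid-rich libraries 2 passed (Rnf213 and Lgals3bp), where 0.917% of all genes were called higher. Among animals with numbers beginning with 83 the count was 1 (Lgals3bp; 0.882% of all genes) and the median 0.99, and among those beginning with 85 it was 0 (0.00531% of all genes) and the median 1.14, with fewer mice in both. With the microglia marker covariate it was 0 and the median 0.06, where 0.0211% of all genes were called higher. Treated mice, at 579 to 1034 CPM of these markers, all lay above WT mice (413 to 489 CPM). That fit therefore cannot separate the covariate from group.

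**Figure D5:**
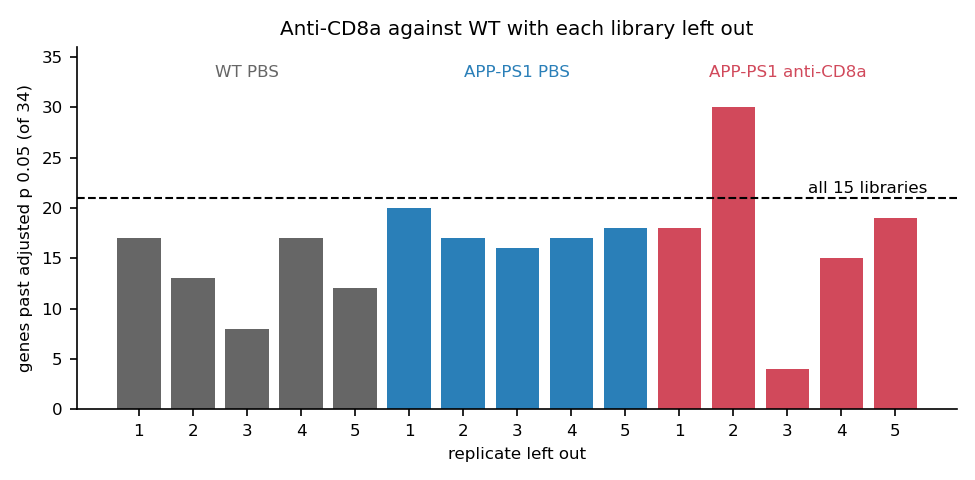
Number of the 34 genes higher in treated than in WT mice at an adjusted p under 0.05 (edgeR) when the library on the horizontal axis is left out; the dashed line marks the 21 called with all 15 libraries. The count runs from 4 without anti-CD8a replicate 3 to 30 without anti-CD8a replicate 2.

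Upstream of these genes, interferon transcripts themselves were scarcely present. Of 21 ligand genes 12 had 0 counts in all 15 libraries, Ifnb1 among them, and the most abundant, Ifnk, had 16 counts in total. Ifng, the product of activated T and NK cells, had 1, 2 and 3 counts over the WT, PBS-given and treated groups. Ifnar1 was at 45.9 ± 2.57, 45.5 ± 2.55 and 47.6 ± 3.04 CPM in WT, PBS-given and treated mice, with log2 fold changes of -0.04, 0.06 and 0.02 in the first, the second and the third comparison, and Ifnar2 had 0.06, 0.03 and 0.09. edgeR called none of the 5 receptor genes tested in any comparison, with 1, 0 and 0 at an unadjusted p under 0.05, and DESeq2 called 1, 0 and 0. The 1 was Ifngr1, a subunit of the interferon gamma receptor, with a log2 fold change of 0.31 (SE 0.09) between the PBS-given groups.

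Between ligand and target, Irf8, a factor that microglia require, rose by 1.21 (SE 0.17) between treated and WT mice and by 0.92 (SE 0.17) between the PBS-given groups. Irf5, a factor downstream of Toll-like receptors, rose by 0.66 (SE 0.16) between treated and WT mice. Irf3, which is activated by phosphorylation, had -0.02, -0.02 and -0.04, and Jak2 0.08, -0.15 and -0.07.

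Among 15 sensors and adaptors 5 rose between treated and WT mice, where 1.76% of all genes were called higher: Tlr7 (0.83), a receptor for single-stranded RNA, Eif2ak2 (PKR, 0.74), Unc93b1 (0.68), which carries such receptors to endosomes, Trim25 (0.54), and Tmem173 (STING, 0.56). Tlr7 (1.17) and Eif2ak2 (0.52) passed between the PBS-given groups too. Of 13 genes that restrain the response, Ptpn6 (1.22), a phosphatase of blood and microglial cells, and Nlrc5 (0.84), which also switches on MHC class I genes, rose, and Ptpn6 was 1.10 higher on the log2 scale between the PBS-given groups. Other interferon-induced genes outside the 34 gave 25 of 65 higher and a median of 0.59 between treated and WT mice, and none was lower in edgeR or DESeq2. Slfn8 (1.43), Trim34a (0.91), Slfn9 (1.38) and B2m (0.71) had the smallest p. In the first comparison 1 of the 65 passed, B2m (0.66), with a median of 0.35. In the second 0 passed in edgeR or DESeq2, with a median of 0.20 and 11 estimates below 0. At an unadjusted p under 0.05 in edgeR, 17 of the 65 were higher there and 1 lower, against 7.59% of all genes on the higher side. Over the 109 pathway genes tested outside the 34, edgeR called 5, 0 and 35 higher in the first, the second and the third comparison, against 0.938%, 0% and 1.76% of all genes. Without anti-CD8a replicate 3 the 35 became 9 (0.667% of all genes called higher), and without the choroid-rich libraries 7 (0.917%).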

How the data were processed

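Poly(A) RNA libraries of 15 mice were made with a stranded kit and read for 75 cycles. The authors deposited raw counts per gene; the submitters' processing notes name FastQC, Bowtie2 2.2.2, HTSeq 0.11.2, DESeq2 and build GRCm38. The sources used here give neither the annotation release nor the strand setting of the counting, so reads of overlapping genes may be mixed. The overlapping pairs are Irf7 and Phrf1, Irf9 and Rnf31, Dhx58 and Dhx58os, and Rtp4 with Masp1 and Gm45338. Further pairs are Rnf213 and A930037H05Rik, Parp14 and Gm49730, Trim30a and Gm25405, and Usp18 and Gm44148. The others are Slfn2 and Gm20234, Oas2 and Gm43068, Gbp2 and Mir6381, and Gbp7 and Gm43802. Reads in no gene (20.0 to 25.9% of counts) were left out. Each of 30 pairs of replicates differed by more than counting error (chi-square divided by its degrees of freedom, 7.30 to 35.8). Each library is 1 mouse, so p-values measure the spread between mice; how the libraries were batched is not known here.

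Counts were scaled by TMM and fitted over all 15 libraries with group and labelled sex (edgeR 4.0.16, quasi-likelihood test, R 4.3.3, 11 residual degrees of freedom). Of 46078 genes 18974 passed edgeR's default filter and entered the Benjamini-Hochberg adjustment, with 0.05 as the threshold. Log2 CPM used a prior count of 2. The standard errors (SE) given with edgeR estimates were derived from its test. Each is the size of the log2 fold change divided by the square root of the F statistic. DESeq2 1.42.0, limma-voom (limma 3.58.1), other scalings, filters, covariates and left-out libraries were alternatives. The script was tested on simulated counts. Lengths, overlaps and shared 75-base stretches came from a GENCODE annotation of GRCm38, and promoters from RefSeq. Genes named are the 34 by role, with per-mouse values for those with the smallest p and the regulators, and up to 4 genes of each pathway list by p. The 34 genes and all lists were chosen with earlier results of these data known. Some results on single pathway genes are not reported here.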

Additional observations from a re-analysis of the deposited data

Results flagged for a closer look

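In 10 of 105 groups of 5 mice (each of the 34 genes and the mean level in the 3 groups), 1 mouse lay farther from its neighbour than Dixon's 95% limit allows, where chance gives about 1 in 20. Anti-CD8a replicate 3 was that mouse for Stat2 (53.2 CPM against 39.3 to 40.1 CPM in the other 4), Ifi27l2a (9.13 against 1.57 to 3.23 CPM), Xaf1 (16.2 against 8.45 to 10.3 CPM) and Lgals3bp (77.5 against 35.6 to 45.0 CPM). APP-PS1 PBS replicate 5 was the high mouse for Ifi44 (2.04 against 0.859 to 1.02 CPM), Trim30a (10.4 against 8.21 to 8.83 CPM) and Parp14 (12.6 against 9.86 to 10.6 CPM). WT replicate 1 was high for Ifi204 (1.49 against 0.520 to 0.689 CPM) and Oas1a (0.822 against 0.399 to 0.466 CPM). WT replicate 5 was low for Rsad2 (1.38 against 2.32 to 2.56 CPM).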

How the results depend on the processing

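The first comparison is APP-PS1 against WT, the second treated against PBS-given APP-PS1 mice and the third treated against WT. The median over the 34 genes kept its sign in each comparison under each alternative run except the microglia marker covariate. That covariate, chosen after seeing the data, gave -0.26 in the first. Its values in WT mice lay below those of all APP-PS1 mice, so it cannot be separated from group in the first and the third. Counts of called genes were less stable. In the first comparison 0.938% of all genes were called higher in the main fit. There 0 of 34 became 3 with DESeq2 (1.48% of all genes) and 3 without a filter (0.682%). The count was 4 with 2 groups alone (0.914%) and 0 to 4 with a library left out (0.702 to 1.12%). The 5 pathway genes became 11 with DESeq2, and 2 and 0 within number series 83 and 85 (0.341% and 0.0106%). They became 3 without the libraries above 1000 CPM of Ttr (0.513%), 0 with the microglia covariate (0.0369%) and 4 to 7 with a library left out. In the second, 0 became 4 with DESeq2 (0.369% of all genes called higher) and 1 without a filter (0.00905%), and was 0 with each library left out. In the third, 1.76% of all genes were called higher in the main fit. There 21 became 10 with limma-voom (1.58%), 7 with 2 groups alone (1.06%), and 1 and 0 within series 83 and 85 (0.882% and 0.00531%). The count was 11 with a choroid plexus covariate (1.25%) and 2 without the Ttr-rich libraries (0.917%). It was 0 with the microglia covariate (0.0211%) and 4 to 30 with a library left out (0.667 to 2%). In these same fits, with the shares just given, the 35 pathway genes became 15 with 2 groups alone and 9 and 0 within the series. They became 22 with the choroid covariate, 7 without the Ttr-rich libraries, 0 with the microglia covariate and 9 to 44 with a library left out. Some of these fits hold fewer mice, and the cause of these moves was not tested. Over all genes, 195 called in the first comparison became 361 with DESeq2 and 115 without the sex covariate, the 0 of the second became 143 with DESeq2 and 13 without a filter, and the 369 of the third became 221 with 2 groups alone and 140 without anti-CD8a replicate 3. The mean member level differed by 0.39 to 0.50, 0.29 to 0.59 and 0.74 to 1.03 with a library left out, and by 0.84, 0.85 and 1.69 SD with each gene scaled to unit SD.

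Single genes changed sign as follows. In the first comparison without the Ttr-rich libraries the values were Isg15 -0.00370, Gbp7 -0.0161, Ifi44 -0.659 and Rtp4 -0.0408; within series 85 Bst2 -0.247; and without APP-PS1 PBS replicate 5 Bst2 -0.0196 (-0.0196 to 0.604 over all libraries left out) and Ifi44 -0.0692 (-0.0692 to 0.475 over all libraries left out). In the second they were Ifit2 -0.0519 within series 83, Ifi27l2a -0.339 and Lgals3bp -0.0286 within series 85, Ifit2 -0.0144 and Ifi27l2a -0.0568 (-0.0568 to 0.745 over all libraries left out) without anti-CD8a replicate 3 and Ifit2 -0.0671 (-0.0671 to 0.134 over all libraries left out) without replicate 4. With the microglia covariate the first comparison gave Stat2 -0.265, Irf7 -0.748, Irf9 -0.387, Ddx58 -0.396, Dhx58 -0.132, Zbp1 -0.846, Isg15 -0.533, Usp18 -0.107, Ifit1 -0.462, Ifit2 -0.0277, Ifit3 -0.105, Oas1a -0.615, Oas2 -0.348, Oasl2 -0.147, Cmpk2 -0.00605, Bst2 -0.478, Ifitm3 -0.397, Mx1 -0.338, Mx2 -0.0337, Rnf213 -0.200, Gbp2 -0.0861, Gbp3 -0.246, Gbp7 -0.120, Ifi27l2a -0.611, Ifi44 -0.573, Xaf1 -0.326, Rtp4 -0.686, Slfn2 -0.474, Lgals3bp -0.242 and Parp14 -0.148, the second Ifit2 -0.0110, and the third Stat2 -0.108, Irf7 -0.0429, Irf9 -0.0461, Ddx58 -0.173, Zbp1 -0.173, Ifit2 -0.0387, Oas1a -0.0516, Oas2 -0.113, Bst2 -0.0577, Ifitm3 -0.240, Gbp2 -0.0460, Ifi27l2a -0.487, Xaf1 -0.168, Rtp4 -0.00946 and Slfn2 -0.200. No paired analysis was possible because the labels give animal numbers that no 2 groups share. Depth limits the low genes most: Zbp1, with 2 to 9 counts in WT libraries, had a standard error of 0.50 on the log2 scale in the third comparison, the widest of the 34.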
